A study of Homo sapiens with 12 samples.

Results

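The unfolded protein response genes described here are 10 genes: HSPA5, HSP90B1, PDIA4, DNAJB9, SDF2L1, HERPUD1, EDEM3, XBP1, ATF4 and TRIB3. They were chosen by name, with earlier results of these data known, and each matched 1 of the 58735 gene identifiers counted in every library. All 10 passed the filter on low counts in each comparison. The study's title concerns splicing of mRNA and microRNAs encoded in introns, and its 12 libraries come from HEK293T, a cell line of human embryonic kidney origin, chosen in many laboratories for transfection and expressing SV40 large T antigen. Gene counts say how much RNA of a gene was sequenced, and not how that RNA was spliced.

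The labels give 4 groups of 3 libraries each. The miR-211 libraries came from cells given 500 ng of a plasmid for this microRNA, and the plasmid control libraries from cells given a control plasmid. The U1 siRNA libraries came from cells given an siRNA of the Dicer-substrate kind at 1 nM, aimed at U1, the small nuclear RNA that pairs with 5 prime splice sites. The scrambled oligo libraries came from cells given a control oligo, whose dose the labels do not state. The treatment labels of both oligo groups add WT, which those of the plasmid groups do not; what it refers to is not stated. The labels name Lipofectamine 2000 for the plasmids, and RNA was taken with Trizol 24 h after transfection in all groups. By GFP at least 50% of cells were transfected, so each library may also hold RNA of cells that took up nothing. Whether replicates were separate cultures is not stated; the p-values therefore reflect the scatter among these libraries and no more, and that scatter may be technical.

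The unfolded protein response adjusts the folding capacity of the endoplasmic reticulum (ER) when unfolded proteins gather there. It starts from sensors in the ER membrane. IRE1 (ERN1) removes a short intron from XBP1 mRNA outside the nucleus, which gives the active transcription factor, ATF6 is cut to release another, and PERK (EIF2AK3) phosphorylates eIF2alpha, which lowers general translation but favours translation of ATF4 mRNA. These factors raise ER chaperones, folding enzymes and the machinery of ER-associated degradation, in which misfolded proteins are sent back to the cytosol for destruction. A gene count measures neither the IRE1-spliced form of XBP1 nor the translation of ATF4.

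Total gene counts ran from 6070116 to 8459646 with miR-211, from 6226067 to 7484566 with the plasmid control, between 4515728 and 6343000 in U1 siRNA libraries and between 5903205 and 9290686 in scrambled oligo libraries. MIR211 had 1646, 1997 and 1976 counts in the miR-211 libraries, against 1, 9 and 1 in the plasmid control libraries. U1 siRNA replicate 2 stood apart, with 44.5% of its uniquely mapped pairs outside annotated exons against 14.5% to 25.5% in the other 11 libraries, so the U1 siRNA and interaction tests of the 10 genes are summarised without it too. Of the line's marker genes, NEFL was at 69.8 to 108 CPM and VIM at 43.6 to 60.7 CPM, while the renal factors PAX2 and LHX1 stayed at or under 0.536 and 0.670 CPM. The keratins were low too, with KRT8 at 2.12 to 4.15 CPM and KRT18 at 5.98 to 10.98 CPM. In U1 siRNA libraries the summed level of 5 fibroblast markers ran from 3.01 to 15.99 CPM, the highest being that of replicate 2. It was at 3.84 to 6.44 CPM in scrambled oligo libraries and at or under 7.51 CPM with either plasmid. The sum of 5 blood cell markers was also highest in U1 siRNA replicate 2, at 6.85 CPM. No marker was at 0 in all 12 libraries.

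Levels are given as CPM, the counts of a gene relative to the library total (counts per 1000000), after TMM scaling over all 12 libraries. The text names a change only where a gene passed an adjusted p under 0.05 in edgeR's quasi-likelihood test over all genes tested.

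Several of these genes are textbook targets of ATF6 and XBP1, which act through the ER stress response element. Exact matches to 4 motifs were searched, on both strands, from 250 bases before to 50 bases after each RefSeq transcript start on GRCh38.p14. The motifs were the element ERSE (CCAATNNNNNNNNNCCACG), ERSE-II (ATTGGNCCACG), the XBP1 core TGACGTGG and the composite element TTGCATCA bound by ATF4 and its partners. All 10 genes had such a window, 15 windows in all. The 250 bases before the start are shown for the 5 genes with a match, with the matches in capitals, to show which gene holds which motif and where.
HSPA5, chr9:125241344-125241593, minus strand: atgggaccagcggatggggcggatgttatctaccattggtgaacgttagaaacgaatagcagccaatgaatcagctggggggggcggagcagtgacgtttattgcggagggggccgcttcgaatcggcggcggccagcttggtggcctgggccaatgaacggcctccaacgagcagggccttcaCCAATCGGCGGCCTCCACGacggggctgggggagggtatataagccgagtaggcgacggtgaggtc
HSP90B1, chr12:103930160-103930409, plus strand: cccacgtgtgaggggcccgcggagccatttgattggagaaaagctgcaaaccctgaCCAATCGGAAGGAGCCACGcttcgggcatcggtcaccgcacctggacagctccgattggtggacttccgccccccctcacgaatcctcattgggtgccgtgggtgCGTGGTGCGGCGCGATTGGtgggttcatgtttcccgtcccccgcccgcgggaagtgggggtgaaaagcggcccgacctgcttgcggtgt
XBP1, chr22:28800570-28800819, minus strand: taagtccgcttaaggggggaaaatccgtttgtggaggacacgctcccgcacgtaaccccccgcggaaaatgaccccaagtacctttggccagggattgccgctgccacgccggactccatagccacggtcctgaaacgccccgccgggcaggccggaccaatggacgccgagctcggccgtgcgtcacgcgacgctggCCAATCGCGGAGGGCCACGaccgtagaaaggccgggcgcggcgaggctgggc
HERPUD1, chr16:56931892-56932141, plus strand: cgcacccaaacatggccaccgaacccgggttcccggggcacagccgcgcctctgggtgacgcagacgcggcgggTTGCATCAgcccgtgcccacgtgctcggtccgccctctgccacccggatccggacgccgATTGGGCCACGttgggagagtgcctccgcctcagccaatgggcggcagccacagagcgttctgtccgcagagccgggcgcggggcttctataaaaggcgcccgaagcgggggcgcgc
SDF2L1, chr22:21642052-21642301, plus strand: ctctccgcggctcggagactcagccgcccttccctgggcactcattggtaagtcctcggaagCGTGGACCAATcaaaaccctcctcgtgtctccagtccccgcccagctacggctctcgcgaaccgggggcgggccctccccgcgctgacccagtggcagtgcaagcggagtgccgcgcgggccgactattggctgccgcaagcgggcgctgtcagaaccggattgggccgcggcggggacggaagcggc

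The genes were picked as members of this response and several are known targets of the element. The shares below therefore describe the windows and are not a test of enrichment. ERSE matched in 3 of the 10 genes, against 0.0916% of the 27305 genes with a window. In HSPA5 it lay 66 to 48 bases before the start and in XBP1 52 to 34 bases before it. HSP90B1 held 2 matches, 194 to 176 bases before the start on the strand of the gene and 89 to 71 bases before it on the opposite strand. ERSE-II matched in 2 of the 10 genes, against 0.0696% of all genes: in HERPUD1 117 to 107 bases before the start, and in SDF2L1 188 to 178 bases before it on the opposite strand. HERPUD1 also held the ATF4 composite element, 176 to 169 bases before the start, which 1.08% of all genes have. The XBP1 core matched in 0 of the 10 genes and in 0.927% of all genes. ERSE and ERSE-II share the letters CCACG, but no match of one overlapped a match of another. PDIA4, DNAJB9, EDEM3, ATF4 and TRIB3 had no match, which says only that these letters are not in these windows.

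**Figure D1:**
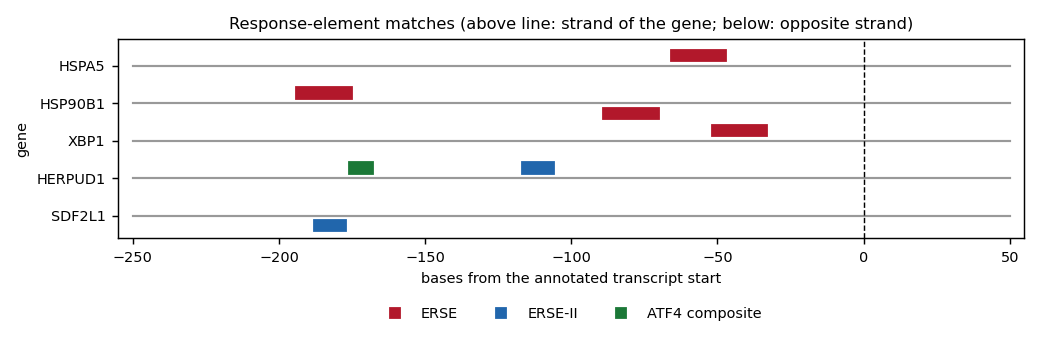
Position of each exact motif match, in bases from the annotated transcript start, in the promoter windows of the 5 genes with a match (boxes above a line are on the strand of the gene, boxes below on the opposite strand). HSPA5 and XBP1 hold ERSE within 66 bases of the start, HSP90B1 holds 2 copies, and HERPUD1 and SDF2L1 hold ERSE-II.

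The genes spanned more than 2 orders of magnitude in expression. Per kilobase of exon, the mean over 12 libraries was highest for HSPA5 (237 CPM per kb), followed by ATF4 (149), HSP90B1 (98.5), PDIA4 (31.9), HERPUD1 (11.9), SDF2L1 (8.34), XBP1 (5.37), DNAJB9 (4.19), EDEM3 (2.796) and TRIB3 (0.985 CPM per kb). Among the 11464 protein-coding genes that passed the filter on low counts, these means lay between percentile 98.3 for HSPA5 and percentile 26.4 for TRIB3. The first 4 places and the last were the same in every library. HERPUD1 was in place 5 or 6, XBP1 in place 6 or 7, DNAJB9 in place 7 or 8 and EDEM3 in place 8 or 9, so neighbours in the middle of the order were not separated in all libraries. SDF2L1 moved between place 5 and place 9.

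**Figure D2:**
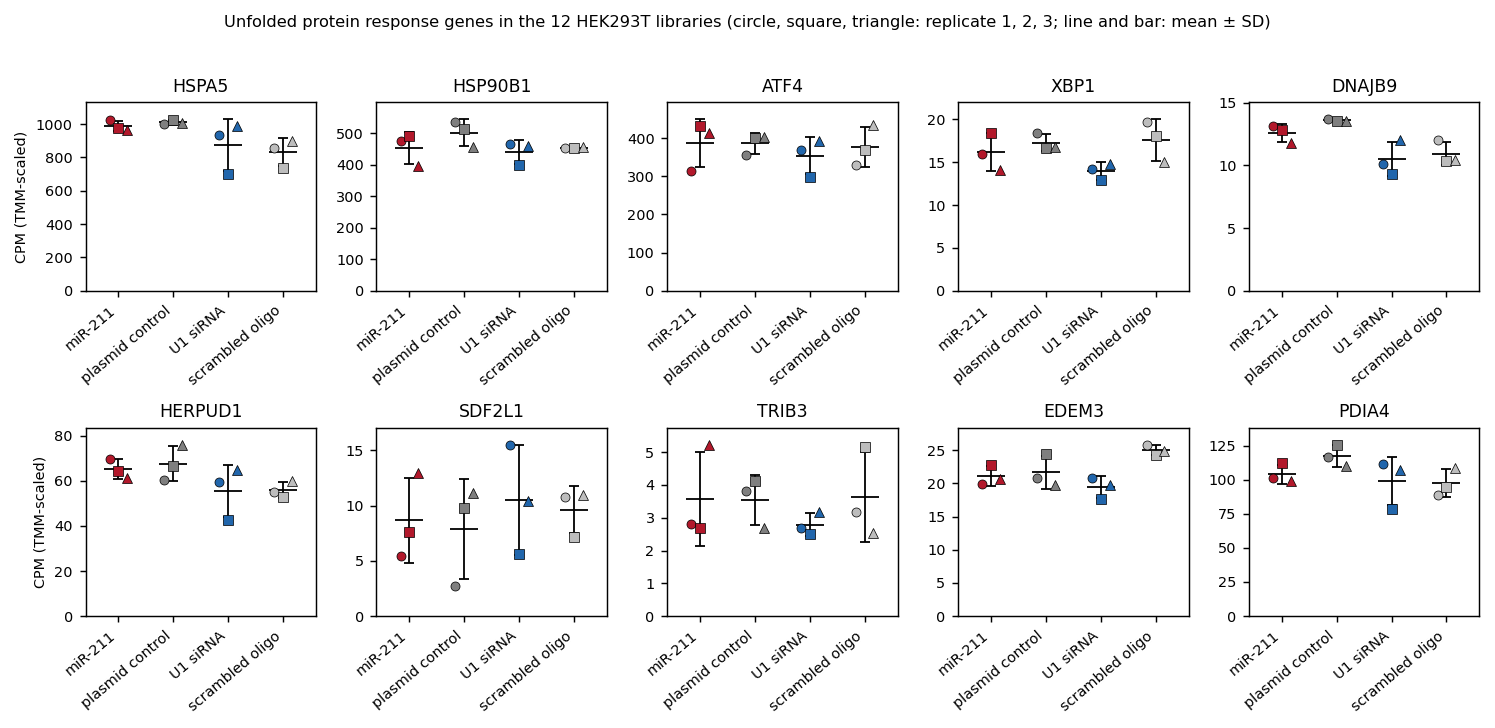
Level of each gene in CPM (y axis, from 0) in the 3 libraries of each group (circle, square and triangle for replicates 1, 2 and 3; line and bar for mean and SD). Most groups overlap; EDEM3 is at 17.65 to 20.9 CPM in U1 siRNA libraries and at 24.3 to 25.8 CPM in scrambled oligo libraries.

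Among the chaperones and folding enzymes, HSPA5 (ENSG00000044574, chr9:125234853-125241330, minus strand), also called BiP, is the HSP70 of the ER and holds the sensors inactive while it is free of clients. Its level was 1026, 978 and 967 CPM in miR-211 libraries, against 999, 1027 and 1005 CPM in plasmid control libraries. In U1 siRNA libraries it was 934, 699 and 989 CPM, against 859.5, 739 and 897 CPM in scrambled oligo libraries. Both pairs overlapped, and the low library on the oligo side, U1 siRNA replicate 2, is the one that stood apart. With 3365 to 8491 counts per library, HSPA5 had the smallest counting error of the 10 genes.

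HSP90B1 (ENSG00000166598, chr12:103930107-103953645, plus strand), or GRP94, is the HSP90 of the ER. It was at 475, 491 and 397 CPM with miR-211, against 536, 515 and 455 CPM with the plasmid control. It was at 465, 398 and 459.8 CPM with U1 siRNA, against 452, 452 and 456 CPM with the scrambled oligo. Neither pair of groups was separated. MIR3652 lies in its exons on the same strand, and 7.60% of its exon bases are shared with other genes.

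PDIA4 (ENSG00000155660, chr7:149003062-149028641, minus strand), a protein disulfide isomerase of the ER also called ERp72, was at 101, 112 and 99.1 CPM with miR-211, against 116, 126 and 109.9 CPM with the plasmid control. It was at 111, 78.7 and 107 CPM with U1 siRNA, against 88.8, 94.9 and 109 CPM with the scrambled oligo. With miR-211 only the second library reached into the range of the plasmid control.

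DNAJB9 (ENSG00000128590, chr7:108569568-108574850, plus strand), or ERdj4, is a J-domain co-chaperone that brings HSPA5 to its clients and to IRE1. It was at 13.1, 12.8 and 11.8 CPM with miR-211, against 13.7, 13.6 and 13.5 CPM with the plasmid control. It was at 10.1, 9.34 and 12.01 CPM with U1 siRNA, against 12.01, 10.3 and 10.5 CPM with the scrambled oligo. The 3 miR-211 libraries lay below all plasmid control libraries, while U1 siRNA and scrambled oligo overlapped. With the plasmid control the coefficient of variation of DNAJB9 was 0.496%, where counting error alone gives 10.4%. The closeness of these 3 values therefore overstates their precision, and with it the separation of the groups. Its counts are uncertain, because 6.45% of its exon bases lie opposite PNPLA8 and THAP5. The 2 strand columns together held 2189 of its counts over the 12 libraries against 978 in the unstranded column, in which a pair over both genes is counted for neither. On counts of strand column 4 alone the miR-211 log2 fold change of DNAJB9 was 0.15, and on those of column 3 its U1 siRNA log2 fold change was 0.22, both above 0 where the unstranded counts gave values below 0.

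SDF2L1 (ENSG00000128228, chr22:21642261-21644298, plus strand) is a small ER protein that works with HSPA5 and its J-domain partners. It was at 5.48, 7.58 and 12.9 CPM with miR-211, against 2.702, 9.74 and 11.1 CPM with the plasmid control. It was at 15.5, 5.61 and 10.4 CPM with U1 siRNA, against 10.8, 7.17 and 10.98 CPM with the scrambled oligo. SDF2L1 was the most variable of the 10 genes: its highest library was 5.74 times its lowest, against 2.10 times for TRIB3 and 1.35 to 1.78 times for the other 8. Its coefficient of variation was 44.3% with miR-211, 57.5% with the plasmid control, 47.1% in U1 siRNA libraries and 22.2% in scrambled oligo libraries, where counting error alone gives 11.6% to 13.4%.

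Of the degradation genes, HERPUD1 (ENSG00000051108, chr16:56932048-56944863, plus strand) is an ER membrane protein with a ubiquitin-like domain that serves the HRD1 ligase complex. It was at 69.9, 64.5 and 61.1 CPM with miR-211, against 60.6, 66.4 and 76.0 CPM with the plasmid control. It was at 59.3, 42.8 and 65.0 CPM with U1 siRNA, against 55.1, 53.0 and 60.0 CPM with the scrambled oligo. Both pairs overlapped.

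EDEM3 (ENSG00000116406, chr1:184690231-184754913, minus strand) trims mannose from misfolded glycoproteins and so marks them for degradation. It was at 19.9, 22.9 and 20.6 CPM with miR-211, against 20.8, 24.5 and 19.7 CPM with the plasmid control. It was at 20.9, 17.65 and 19.8 CPM with U1 siRNA, against 25.8, 24.3 and 24.9 CPM with the scrambled oligo. All 3 U1 siRNA libraries lay below all 3 scrambled oligo libraries.

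Among the regulators, XBP1 (ENSG00000100219, chr22:28794555-28800597, minus strand) was at 15.9, 18.5 and 14.1 CPM with miR-211, against 18.4, 16.7 and 16.8 CPM with the plasmid control. It was at 14.2, 12.9 and 14.8 CPM with U1 siRNA, against 19.7, 18.01 and 15.0 CPM with the scrambled oligo. The U1 siRNA libraries again lay below the scrambled oligo libraries, but the nearest values, 14.8 and 15.0 CPM, almost met. ATF4 (ENSG00000128272, chr22:39519695-39522685, plus strand) was at 315, 430.3 and 414 CPM with miR-211, against 354, 401 and 403 CPM with the plasmid control, and overlapped likewise between U1 siRNA (299 to 392 CPM) and scrambled oligo (329 to 434 CPM). TRIB3 (ENSG00000101255, chr20:362835-397559, plus strand), a pseudokinase that ATF4 induces and that feeds back on the pathway, had 12 to 40 counts per library. Its level was 2.69 to 5.22 CPM with miR-211, against 2.68 to 4.13 CPM with the plasmid control, and 2.49 to 3.18 CPM with U1 siRNA, against 2.53 to 5.17 CPM with the scrambled oligo.

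**Figure D3:**
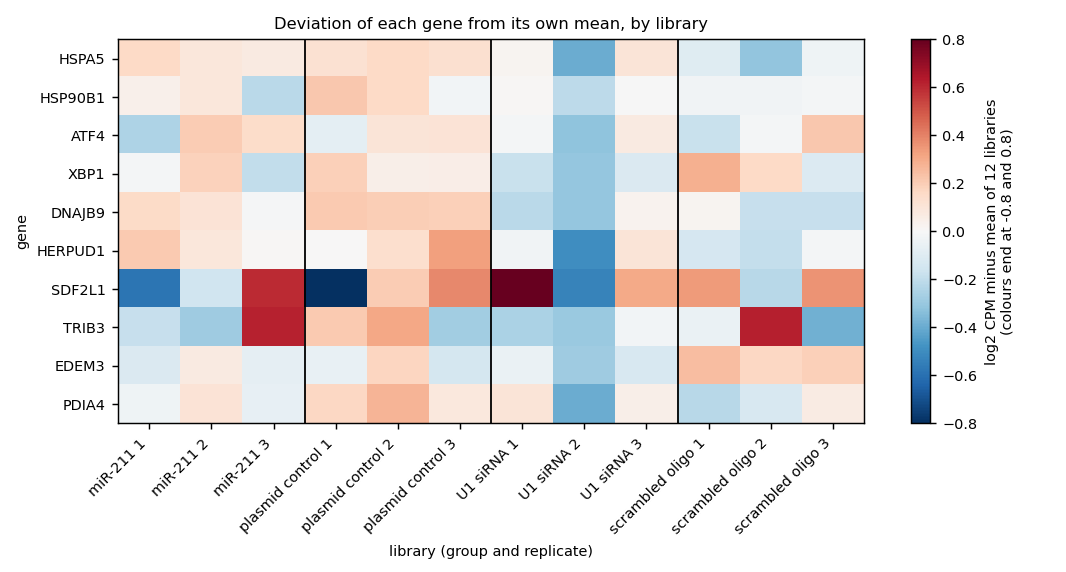
Deviation of each gene (rows) from its own mean over the 12 libraries (columns), in log2 CPM; red is above the mean, blue below, and colours end at 0.8 either way. The column of U1 siRNA replicate 2 is blue for all 10 genes, and after TMM scaling it is the lowest library for 8 of them.

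After TMM scaling, U1 siRNA replicate 2 was the lowest of the 12 libraries for 8 of the 10 genes. HSP90B1 was lowest in miR-211 replicate 3 and SDF2L1 in plasmid control replicate 1. Over all 13520 genes tested, U1 siRNA replicate 2 was the lowest for 15.8%. Its TMM factor, 1.066, was the largest of the 12, which lowers its CPM. Without TMM scaling it was not the lowest for ATF4 (318.9 CPM, against 312.4 CPM in miR-211 replicate 1). The same held for TRIB3 (2.66 CPM, against 2.58 CPM in scrambled oligo replicate 3). The share over all genes was not computed without TMM scaling. U1 siRNA replicate 2 also had the highest share of pairs outside exons, the smallest total gene count (4515728) and the most genes detected (39294). Whether any of these bears on the low values was not tested. In bulk RNA fewer cells of a kind and less RNA per cell cannot be told apart.

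The miR-211 comparison asks what overexpression of this microRNA does to the transcriptome. None of the 10 unfolded protein response genes passed the test. Values were lower with miR-211 for 7 of the 10 and higher for SDF2L1, TRIB3 and ATF4. The median log2 fold change of the 10 was -0.03, against 0.01 over all genes tested. The edgeR quasi-likelihood test called 0 of 10, DESeq2 and limma-voom also called 0, and 0 of 10 had an unadjusted p under 0.05. Over all 12685 genes tested, 0.00788% were called (1 gene, MIR211) and 3.29% had an unadjusted p under 0.05. DNAJB9 was the single gene of the 10 whose miR-211 libraries all lay below the plasmid control libraries, and for 0 of 10 did they all lie above, where 4.5% of all genes were lower and 4.05% higher in this way. Without TMM scaling, PDIA4 joined DNAJB9.

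The replicate numbers pair these libraries, and with the replicate number as a block 2 of the 10 genes had an unadjusted p under 0.05 and 0 an adjusted one. The share of all genes with an unadjusted p under 0.05 was not computed for that fit. HSP90B1 was then at -0.13 (edgeR unadjusted p = 0.0241, adjusted p = 0.645) and PDIA4 at -0.16 (edgeR unadjusted p = 0.0273, adjusted p = 0.645). Both were lower with miR-211 in all 3 pairs, as was DNAJB9. The share of all genes lower in all 3 pairs was not computed.

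The intervals say what size of change these libraries leave room for. For HSPA5, which averaged 990.4 ± 31.4 CPM with miR-211 and 1011 ± 14.6 CPM with the plasmid control (SD, n = 3 each), the fold change was 0.989 with a 95% interval of 0.897 to 1.09. For PDIA4, at 104 ± 6.89 CPM and 117 ± 7.84 CPM (SD, n = 3 each), the log2 fold change was -0.16 (SE 0.083, interval -0.34 to 0.02, edgeR unadjusted p = 0.0771, adjusted p = 0.996). HSP90B1 gave -0.13 (SE 0.088), DNAJB9 -0.10 (SE 0.13) and XBP1 -0.08 (SE 0.14). The intervals of SDF2L1 (fold 0.651 to 1.89) and TRIB3 (fold 0.657 to 1.63) were wide and held a 1.5-fold change. SDF2L1 varied between libraries by more than its counting error. TRIB3 had few counts, and its coefficient of variation was 39.9% with miR-211, where counting error alone gives 19.5%. With the plasmid control it was 21.6%, where counting error alone gives 20.4%.

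**Figure D4:**
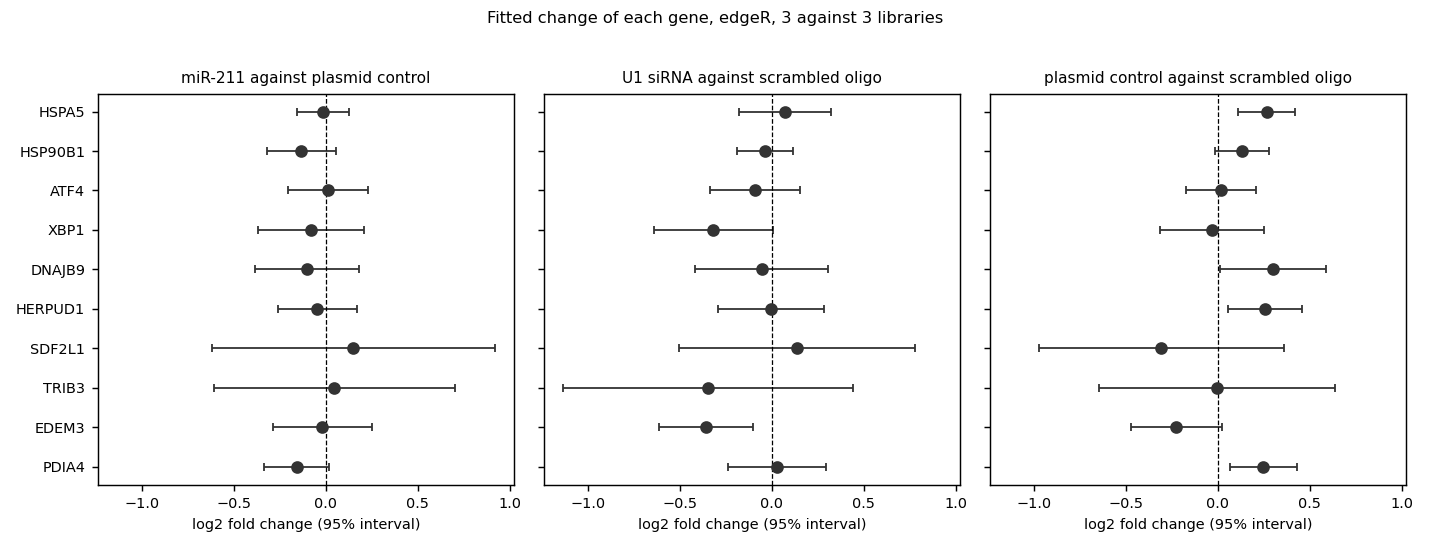
Fitted log2 fold change of each gene (x axis) with its 95% interval, from edgeR on 3 against 3 libraries, in 3 comparisons. With miR-211 every interval crosses 0; with U1 siRNA that of EDEM3 does not; between plasmid control and scrambled oligo those of HSPA5, DNAJB9, HERPUD1 and PDIA4 do not.

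The U1 siRNA comparison asks what partial loss of U1 does; the labels state an inhibition of 30%. Again none of the 10 genes passed the adjusted test. EDEM3 and XBP1, a degradation enzyme and a transcription factor, were the 2 whose U1 siRNA libraries all lay below the scrambled oligo libraries, and for 0 of 10 did they all lie above; over all genes tested these shares were 2.92% and 3.15%. EDEM3 averaged 19.4 ± 1.64 CPM in U1 siRNA libraries and 25.0 ± 0.741 CPM in scrambled oligo libraries (n = 3 each, ± SD). Its fold change was 0.780 (95% interval 0.653 to 0.933), with an unadjusted p of 0.0107 and an adjusted p of 0.9999 in edgeR's quasi-likelihood test, place 24 of 12413 genes by p.

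XBP1 averaged 14.0 ± 1.00 CPM in U1 siRNA libraries and 17.6 ± 2.40 CPM in scrambled oligo libraries (n = 3 each, ± SD). Its log2 fold change was -0.32 (SE 0.15, interval -0.64 to 0.01, edgeR unadjusted p = 0.0547, adjusted p = 0.9999). The chaperones showed no such separation: HSPA5 gave 0.07 (SE 0.11), HSP90B1 -0.04 (SE 0.071) and PDIA4 0.03 (SE 0.12) on the log2 scale. TRIB3 gave -0.35 with an SE of 0.36, and -0.022 without scrambled oligo replicate 2. The edgeR test called 0% of the 12413 genes tested and 0 of the 10 genes, DESeq2 and limma-voom called 0 genes in all too, and 1 of 10 (EDEM3) had an unadjusted p under 0.05, against 1.58% of all genes tested. The median of the 10 was -0.05, against 0.02 over all genes.

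Without U1 siRNA replicate 2, the balance of values turned: 7 of the 10 genes were then higher and 3 lower with U1 siRNA, where all libraries gave 3 higher and 7 lower. EDEM3 was at a log2 fold change of -0.31 (edgeR unadjusted p = 0.036, adjusted p = 0.9997), and XBP1 one of -0.27. HSPA5 was then at 0.20 (edgeR unadjusted p = 0.0314, adjusted p = 0.9997), so that 2 of the 10 genes had an unadjusted p under 0.05 and 0 an adjusted one. For that fit the share of all genes with an unadjusted p under 0.05 was not computed. With the share of pairs outside exons as a covariate, EDEM3 was at -0.33 and XBP1 at -0.28.

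Whether miR-211 and U1 siRNA acted differently was tested with an interaction term in a fit of all 12 libraries. The term was called for 0 of the 10 genes and for 0.0074% of the 13520 genes tested (1 gene, MIR211). An unadjusted p under 0.05 was met by 0 of the 10 genes, against 1.73% of all genes tested. EDEM3 had the lowest p of the 10, with a difference of 0.32 on the log2 scale (SE 0.16, interval -0.02 to 0.67, edgeR unadjusted p = 0.0634, adjusted p = 0.9994). DESeq2 and limma-voom called 0 of 10 as well. Without U1 siRNA replicate 2, the term was called for 0 of the 10 genes but 2 of 10 had an unadjusted p under 0.05: PDIA4 was at -0.32 (edgeR unadjusted p = 0.0255, adjusted p = 0.9992) where all libraries gave -0.20, and HSPA5 was at -0.23 (edgeR unadjusted p = 0.0497, adjusted p = 0.9992) where all libraries gave -0.10. EDEM3 was then at 0.28 (edgeR unadjusted p = 0.129, adjusted p = 0.9992). The share of all genes with an unadjusted p under 0.05 was not computed without U1 siRNA replicate 2.

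The plasmid control and scrambled oligo groups differ in what was transfected, and the labels do not say whether they were handled together. The study sets up no comparison between them, so batch and cargo cannot be told apart, and this contrast uses the control libraries of both other comparisons. HSPA5, PDIA4, HERPUD1 and DNAJB9, which are chaperones, a folding enzyme and a degradation factor, were higher in every plasmid control library than in any scrambled oligo library. For 0 of the 10 genes did all plasmid control libraries lie below. Without TMM scaling 3 of the 10 genes were higher in this way, since PDIA4 then overlapped (109.6 CPM in plasmid control replicate 3 and 110.9 CPM in scrambled oligo replicate 3), and 1, EDEM3, was lower. Over all 12650 genes tested, 8.06% were higher and 5.69% lower in this way. The edgeR quasi-likelihood test called 0 of the 10 genes and 0% of all genes, where DESeq2 called 40 genes in all and limma-voom 3, while 4 of 10 had an unadjusted p under 0.05, against 7.79% of all genes. DESeq2 called HSPA5 (adjusted p = 0.0316) and limma-voom called 0 of 10.

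HSPA5 averaged 1011 ± 14.6 CPM with the plasmid control and 832 ± 82.5 CPM in scrambled oligo libraries (n = 3 each, ± SD), a fold of 1.201 (95% interval 1.08 to 1.34, edgeR unadjusted p = 0.00262, adjusted p = 0.438). DNAJB9 averaged 13.6 ± 0.0674 CPM with the plasmid control and 10.9 ± 0.934 CPM with the scrambled oligo, a log2 fold change of 0.30 (SE 0.14). That plasmid control SD is far below counting error, which alone gives a coefficient of variation of 10.4%. On counts of strand column 4 alone the log2 fold change of DNAJB9 was 0.099, and on those of column 3 it was 0.42. Both columns can also hold pairs of the genes opposite DNAJB9. HERPUD1 averaged 67.7 ± 7.79 CPM with the plasmid control and 56.0 ± 3.58 CPM with the scrambled oligo, a log2 fold change of 0.25 (SE 0.095). PDIA4 averaged 117 ± 7.84 CPM with the plasmid control and 97.5 ± 10.3 CPM with the scrambled oligo, a log2 fold change of 0.25 (SE 0.086). These 4 sat near a 1.2-fold difference, where HSP90B1 gave 0.13 (SE 0.069) and ATF4 0.02 (SE 0.089) on the log2 scale.

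Not all the genes leaned the same way. EDEM3 averaged 21.7 ± 2.52 CPM with the plasmid control and 25.0 ± 0.741 CPM in scrambled oligo libraries (n = 3 each, ± SD), which is -0.23 on the log2 scale (SE 0.11, edgeR unadjusted p = 0.0687, adjusted p = 0.678). XBP1 gave -0.03 (SE 0.13). The median of the 10 was 0.07, against -0.004 over all genes tested. The share of pairs outside exons was 14.5% to 21.8% with the plasmid control and 18.6% to 25.5% with the scrambled oligo, and with it as a covariate HSPA5 was at 0.28 and PDIA4 at 0.32, while 2 of the 10 genes had an unadjusted p under 0.05. How many of all genes met that threshold with the covariate was not computed. Scrambled oligo replicate 2 held the lowest HSPA5 value of its group, 739 CPM, and without it HSPA5 was at 0.18 on the log2 scale (edgeR unadjusted p = 0.0304, adjusted p = 0.943).

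The other genes of the pathway were followed in 5 lists: the ER stress sensors (4 of 4 measured beside the 10 genes), ER chaperones and folding enzymes (14 of 15), ER-associated degradation (14 of 14), the PERK and ATF4 arm (15 of 18), and the translocon with signal peptide handling (17 of 17). In none of the 3 comparisons did a gene of these lists pass edgeR's adjusted test, and DESeq2 and limma-voom each called 1 list gene, PSAT1, between plasmid control and scrambled oligo and 0 in the other 2 comparisons. The named ones are those with the lowest p, given as values that did not pass. Unadjusted p under 0.05 was met by 0 list genes with miR-211, 1 with U1 siRNA (PSAT1), and, between plasmid control and scrambled oligo, by 1 sensor, 4 chaperone genes, 2 degradation genes, 3 genes of the PERK and ATF4 arm and 1 translocon gene. Over all genes tested, the shares were 3.29% with miR-211, 1.58% for U1 siRNA and 7.79% between plasmid control and scrambled oligo.

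With miR-211, the list medians lay close to 0 on the log2 scale: -0.004 for the sensors, 0.01 for the chaperones, 0.02 for degradation, 0.01 for the PERK and ATF4 arm and -0.04 for the translocon, against 0.01 over all genes. Of the chaperone list 8 genes were higher and 6 lower in value, and of the translocon list 6 were higher and 11 lower. SIL1, a nucleotide exchange factor of HSPA5, was at 12.6 CPM with miR-211 and 10.5 CPM with the plasmid control (log2 fold change 0.27, SE 0.16). ERO1A, the oxidase that recharges disulfide isomerases, was at 21.7 CPM with miR-211 and 25.1 CPM with the plasmid control (-0.20, SE 0.12). The degradation genes DERL2 and UBE2J1 gave -0.11 and -0.17. PPP1R15B, a subunit of the phosphatase that reverses the PERK signal, gave -0.10, and ATF5 0.19. SSR4 and SSR2, subunits of the translocon-associated complex, gave 0.12 and 0.13, while the sensors ERN1 and EIF2AK3 gave 0.30 and -0.03.

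With U1 siRNA the medians were 0.07 for the sensors, -0.02 for the chaperones, 0.02 for degradation, -0.01 for the PERK and ATF4 arm and -0.06 for the translocon, against 0.02 over all genes. PSAT1, an enzyme of serine synthesis that ATF4 induces, averaged 787 ± 25.9 CPM in U1 siRNA libraries and 674 ± 37.7 CPM in scrambled oligo libraries (n = 3 each, ± SD). Its log2 fold change was 0.23 (SE 0.067, edgeR unadjusted p = 0.00538, adjusted p = 0.9999). NUPR1, a stress-induced chromatin protein, gave 0.53 with an SE of 0.40, at 2.67 CPM in U1 siRNA and 1.86 CPM in scrambled oligo libraries. DNAJB11, another co-chaperone of HSPA5, gave -0.23, the oxidase ERO1B 0.12, SELENOS 0.16 and UBXN4 -0.10. SEC63, a J-domain protein of the translocon, gave -0.15 and the signal peptidase subunit SPCS3 -0.14, while ATF6 gave -0.11 and ERN1 0.30. Without U1 siRNA replicate 2, the median of the chaperones was 0.08, that of the PERK and ATF4 arm 0.14 and that of the sensors -0.03.

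**Figure D5:**
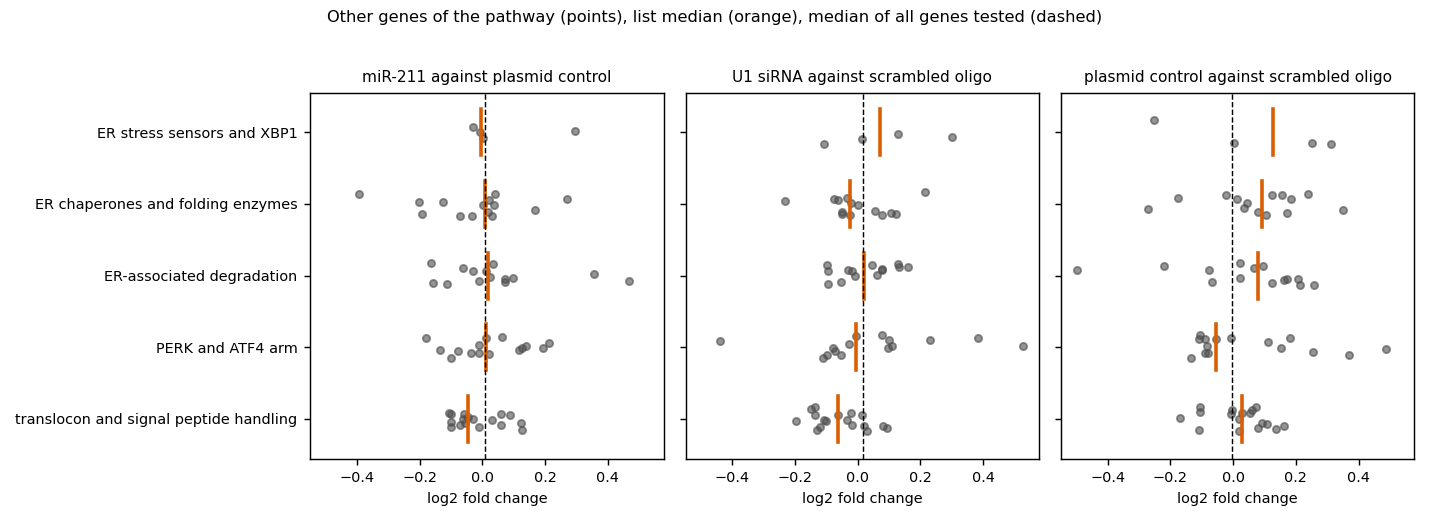
Log2 fold change (x axis) of each measured gene of 5 pathway lists without the 10 genes (points), with the list median (orange) and the median of all genes tested (dashed), in 3 comparisons. List medians lie between -0.06 and 0.13, and those furthest from the dashed line are between plasmid control and scrambled oligo.

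Between plasmid control and scrambled oligo, 11 of 14 chaperone genes and 10 of 14 degradation genes were higher in value with the plasmid control, with medians of 0.09 and 0.08, against -0.004 over all genes tested. The lectin chaperones CALR and CANX gave 0.35 (SE 0.12) and 0.19 (SE 0.066), with edgeR unadjusted p of 0.00999 and 0.0126. CALR averaged 231 ± 19.6 CPM with the plasmid control and 179 ± 40.4 CPM in scrambled oligo libraries (n = 3 each, ± SD). SEL1L, which joins substrates to the HRD1 ligase, gave 0.26, and FAF2, which recruits the p97 ATPase, gave 0.21. Without scrambled oligo replicate 2, the chaperone median was 0.02.

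The PERK and ATF4 arm was mixed in this contrast, with 6 genes higher and 9 lower in value and a median of -0.05. PSAT1 had the lowest p of all 12650 genes: it averaged 954 ± 66.8 CPM with the plasmid control and 674 ± 37.7 CPM in scrambled oligo libraries (n = 3 each, ± SD), which is 0.49 on the log2 scale (SE 0.070, edgeR unadjusted p = 4.8e-06, adjusted p = 0.0525). SLC3A2, the heavy chain of amino acid exchangers, gave 0.26. The sensor list gave 0.13 in the median, with ATF6B at -0.25 (SE 0.10) and EIF2AK3 at 0.31 (SE 0.27). This median rests on 4 genes. It was 0.015 in strand column 3, 0.025 without plasmid control replicate 2, and 0.15 with all 12 libraries in the fit. The translocon list gave 0.03, with SEC63 at 0.16 and SEC61G at -0.17.

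Across the 12 libraries, the genes most like HSPA5 were HSPA9, the mitochondrial HSP70, RPN1, a subunit of the ER oligosaccharyltransferase, and RAB34, a small GTPase. Their log2 CPM, centred on its mean, differed from that of HSPA5 by a root mean square of 0.058, 0.062 and 0.067, where HSPA5 itself varied with an SD of 0.18 and the median gene of 7426 differed by 0.21. RAB34 averaged 15.1 CPM, near XBP1 (16.3 CPM), for which counting error alone gives a coefficient of variation of 8.74% to 11.3%. The distance of RAB34 is smaller than such an error, so picking the nearest of 7426 genes overstates its likeness. For TRIB3 the nearest genes were IFT80 (0.245), NOTCH2 (0.247) and ATPAF1 (0.251). That is close to the SD of TRIB3 itself, 0.34, so no gene followed its pattern closely. These distances describe libraries that share depth and composition, and carry no test.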

How the data were processed

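Per gene, the authors deposited raw counts, with no normalization, in tables with the layout of STAR's per-gene output; STAR 2.7.2a is named per the submitters' processing notes. Those notes also name GRCh37 and hg19, while all 58735 identifiers are those of GENCODE 29, made on GRCh38; gene coordinates here are from GENCODE 29, and the build of the alignment could not be settled. The unstranded column was used. Strand and RNA selection are not given in the sources used here. Gene counts of strand column 4 were 0.990 to 1.10 times those of column 3 in each library, as in libraries without strand information. A strand column can therefore also hold pairs of genes on the opposite strand. Summary lines held 35.4% to 57.4% of pairs and stayed out of library sizes and tests.

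Counts were tested with edgeR 4.0.16 (R 4.3.3), with TMM scaling, filterByExpr, the quasi-likelihood test and Benjamini-Hochberg adjustment over all genes, on the 6 libraries of a comparison; the interaction used all 12. Scripts were tested on simulated data. Alternatives used DESeq2 1.42.0 and limma 3.58.1, among others. Means and SDs are of TMM-scaled CPM, and log2 CPM has a prior count of 2. The number of counts per gene limits precision, and counting error covers counting only.

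The members and lists were chosen with earlier results of these data known. The 10 members are always given; from each list the 2 genes with the lowest p and a mean of at least 1 CPM are named, and for HSPA5 and TRIB3 the 3 genes nearest in pattern with at least 10 CPM. All 94 list and marker genes matched an identifier. No replicates agreed within counting error (chi-square over its degrees of freedom, 1.95 to 7.03). Deviations of same-numbered miR-211 and plasmid control libraries correlated at 0.260, 0.317 and 0.234, all above 0.1, so these numbers were taken to pair the libraries; those of the other comparisons did not all pass 0.1. Promoter sequences are from RefSeq on GRCh38.p14.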

Additional observations from a re-analysis of the deposited data

How the results depend on the processing

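No member was called in the miR-211, U1 siRNA or interaction tests under any alternative run. For plasmid control against scrambled oligo, DESeq2 called HSPA5 (0.27 on the log2 scale). The replicate block with the share of pairs outside exons as a covariate called SDF2L1 (-1.34). That fit has almost as many coefficients as libraries, so its calls and values, here and below, carry little weight. The replicate block alone changed no call of a member. With this block, 2 members had an unadjusted p under 0.05 with miR-211, against 0 without it. The share over all genes was not computed for the blocked fit. The block called 1 gene with miR-211, 0 with U1 siRNA, 30 for plasmid control against scrambled oligo and 0 for the interaction. Same-numbered U1 siRNA and scrambled oligo libraries correlated at 0.143, 0.129 and -0.022, and plasmid control and scrambled oligo libraries at 0.039, 0.003 and 0.159, so there the numbers are shared without a shown pairing. Of the pathway lists, PSAT1 was called between plasmid control and scrambled oligo with DESeq2, limma-voom, the replicate block with and without the covariate, no filter and both strand columns, and without plasmid control replicate 3 or scrambled oligo replicate 3; CALR was called with the block with and without the covariate, with no filter, and without scrambled oligo replicate 3, as was SLC3A2 in that last setting. The causes of the shifts below were not tested.

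Counts of called genes moved as follows. With miR-211 there were 2 without a filter and 2 in each strand column; with U1 siRNA 7 without a filter; in the interaction 3 without a filter, and 0 to 1 with 1 library left out. Between plasmid control and scrambled oligo there were 40 with DESeq2, 3 with limma-voom, 51 without a filter, 176 with the block and the covariate, 4 and 6 in the strand columns, and 0 to 21 with 1 library left out, the 21 without scrambled oligo replicate 3.

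The sign of 2 members with miR-211 (HSP90B1 and PDIA4), 3 with U1 siRNA (XBP1, TRIB3 and EDEM3), 6 between plasmid control and scrambled oligo and 5 in the interaction never turned. Log2 fold changes that turned with miR-211 were, under upper-quartile scaling, 0.0057 for HSPA5 and 0.0040 for EDEM3; with the covariate, -0.088 for TRIB3 and 0.057 for EDEM3; with block and covariate, -0.038 for ATF4, 0.13 for XBP1, 0.24 for HERPUD1, -0.098 for SDF2L1 and -1.30 for TRIB3; in strand column 3, -0.26 for TRIB3 and 0.055 for EDEM3; in strand column 4, -0.0036 for ATF4 and 0.15 for DNAJB9. With U1 siRNA they were -0.030 for PDIA4 without a filter, 0.058 and 0.048 for HERPUD1 with the covariate, alone and with the block, 0.22 for DNAJB9, -0.071 for SDF2L1 and -0.083 for PDIA4 in strand column 3, and 0.071 for HERPUD1 in strand column 4; TRIB3 fell below the filter in both strand columns. Between plasmid control and scrambled oligo they were, for TRIB3, 0.048 with limma-voom, 0.017 without a filter, 0.12 with block and covariate and 0.12 in strand column 3, for ATF4 -0.014 under upper-quartile scaling and -0.011 in strand column 3, and for XBP1 0.0078 in strand column 3. In the interaction SDF2L1 was at 0.028 with DESeq2, 0.21 with limma-voom, 0.013 with RLE and 0.035 with upper-quartile scaling, 0.056 without a filter and 0.045 with the block, and without a filter DNAJB9 and HERPUD1 were at 0.011 and 0.0058.

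With 1 library left out, ranges that crossed 0 with miR-211 were -0.071 to 0.12 for ATF4, -0.19 to 0.012 for XBP1, -0.13 to 0.047 for HERPUD1, -0.26 to 0.49 for SDF2L1, -0.34 to 0.24 for TRIB3 and -0.086 to 0.076 for EDEM3. With U1 siRNA they were -0.022 to 0.20 for HSPA5, -0.073 to 0.022 for HSP90B1, -0.19 to 0.027 for ATF4, -0.16 to 0.0073 for DNAJB9, -0.12 to 0.14 for HERPUD1, -0.26 to 0.41 for SDF2L1 and -0.062 to 0.16 for PDIA4. Between plasmid control and scrambled oligo they were -0.062 to 0.13 for ATF4, -0.15 to 0.074 for XBP1, -0.65 to 0.078 for SDF2L1 and -0.24 to 0.30 for TRIB3. In the interaction they were -0.024 to 0.23 for ATF4, -0.13 to 0.050 for DNAJB9, -0.19 to 0.072 for HERPUD1, -0.41 to 0.40 for SDF2L1 and -0.015 to 0.58 for TRIB3. With U1 siRNA, EDEM3 ranged from -0.41 to -0.31, XBP1 from -0.42 to -0.24 and TRIB3 from -0.56 to -0.022, the last without scrambled oligo replicate 2. Depth limits TRIB3 most, at 12 to 40 counts per library.

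CPM without TMM scaling and list medians under other settings were added after the data were seen. Without TMM scaling, genes of the 10 with no overlap were 2 lower with miR-211 (DNAJB9 and PDIA4), 2 lower with U1 siRNA, and, between plasmid control and scrambled oligo, 3 higher (PDIA4 no longer) and 1 lower (EDEM3).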

Other observations

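Some textbook genes of the pathway had few counts or counts that overlap with other genes. TXNDC5, a disulfide isomerase-like protein of the ER, had 1 to 6 counts per library; 60.6% of its exon bases are shared with BLOC1S5-TXNDC5, a readthrough gene on the same strand. DDIT4, a target of ATF4, had 4 to 10 counts per library, with 72 in the unstranded column over the 12 libraries against 251 in both strand columns, and 41.2% of its exon bases lie opposite DDIT4-AS1. DDIT3, which encodes CHOP, passed the filter with 27 to 86 counts per library, but had 680 unstranded counts against 1578 in both strand columns, and 39.6% of its exon bases are shared, with MARS and MBD6 on the opposite strand and AC022506.1 on the same strand. For ATF5 the counts were 364 and 1411, and for DERL3 they were 325 and 746. The strand columns can also hold pairs of the overlapping genes, so the larger counts need not be the level of the gene. ASNS, the asparagine synthetase that ATF4 induces, was at 7 to 17 counts per library, with 44.6% of its exon bases shared with AC079781.5 on the same strand. FGF21 had 2 counts over all 12 libraries and no shared exon bases.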
